A study of Mus musculus with 18 samples.

Results

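The loci described here are 10 mouse miRNA genes with known roles in fat cell formation, brown fat or lipid metabolism: Mir103-1, Mir103-2, Mir107, Mir33, Mir335, Mir378a, Mir193a, Mir193b, Mir365-1 and Mir365-2. They were chosen by symbol. Of the 10, 9 are among the 2009 miRNA hairpin loci in the deposited counts, and 6 of those had enough counts to be among the 245 loci tested. The tenth, Mir378a, has no row of its own, and the opposite-strand locus that was counted over it is described below.

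Small RNA was sequenced from 4 groups of mouse material, all from adipose tissue of adult animals of the strain NGL. They were extracellular vesicles (EVs) of primed adipose stromal cells (primed EV, n = 5), EVs of naive cells (naive EV, n = 5), the primed stromal cells themselves (primed ASC, n = 4) and the naive cells (naive ASC, n = 4). Primed cells had received interferon gamma, a cytokine of activated lymphocytes, for 24 h, and both kinds of cells then spent 48 h in alpha MEM with 2% serum freed of EVs. The series asks how EVs differ from their parent cells and how EVs of primed cells differ from those of naive cells. Cell RNA came from TRIzol and RNeasy columns and EV RNA from a SeraMir column kit, so EV and isolation method cannot be told apart in any EV against ASC value. The labels do not say that replicates came from separate animals or cultures, and the spread behind every p-value here, that between libraries, may be technical. By title, primed EV 1 and primed EV 5 share the number 5, and naive EV 1 and naive ASC 1 carry 1+2 beside another naive EV library numbered 2; what the numbers mean is not stated, so some libraries may share a source. The labels also give the molecule subtype of all 18 libraries, those of cells included, as EV miRNA, and the group is taken from the source names.

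Total counts ran from 180812 to 3052942 per library. Of the 9 stromal marker loci, all were counted in every group, and their summed share was 63.5% to 67.6% in primed EV, 63.0% to 66.9% in naive EV, 27.3% to 34.8% in primed ASC and 23.7% to 44.6% in naive ASC libraries. Single stromal markers went both ways by log2 fold change in naive EV against naive ASC (model described below). Mir21a (3.07), Mir22 (1.23) and Mir143 (1.15) passed as higher, and Mir145a (-2.79) and Mir214 (-2.17) as lower. Mir199b (0.58), Mir199a-2 (-0.08) and Mir10b (-0.10) did not pass. The 5 blood cell loci in the files (of 8 listed) held 0.145% to 0.613% of counts in primed EV and 0.357% to 1.47% in naive EV libraries, against 0.00873% to 0.0492% in primed ASC and 0.0108% to 0.0187% in naive ASC. The endothelial locus Mir126a held 0.198% to 0.496% in primed EV and 0.319% to 0.902% in naive EV, against 0.00601% to 0.0592% in primed ASC and 0.0105% to 0.0288% in naive ASC, and none of these blood or endothelial loci was at 0 in a group. The 7 epithelial loci held 0.001015% to 0.06135% in primed EV and 0.001558% to 0.2875% in naive EV libraries. Their ASC ranges, 0.006475% to 0.127% (primed) and 0.004113% to 0.2697% (naive), overlapped these. Liver and striated muscle loci reached at most 0.001956% and 0.003183% of a library. The part of other cell types in the EV values below was not tested.

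An miRNA is cut from a hairpin precursor into a duplex of 5p and 3p strands, and the loaded strand recognises messages mainly through its seed, bases 2 to 8. miR-103 and miR-107 are known as regulators of insulin sensitivity in liver and fat and lie in introns of pantothenate kinase genes, whose enzymes start coenzyme A synthesis. The miR-193b and miR-365 pair is known for a role in brown fat differentiation in mouse cells. miR-33 lies within Srebf2, the gene of a master regulator of cholesterol synthesis, and represses the cholesterol exporter ABCA1. miR-335 lies within the imprinted gene Mest, a marker of fat tissue expansion, and miR-378a within Ppargc1b, a coactivator of mitochondrial genes.

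The mature strands are shown because they set which loci the counts can separate (RefSeq, GRCm38.p6, 5′ to 3′, seed in capitals). Mir103-1, Mir103-2 and Mir107 share 1 seed in their 3p strands:
miR-103-3p (Mir103-1 and Mir103-2): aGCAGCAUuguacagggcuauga
miR-107-3p (Mir107): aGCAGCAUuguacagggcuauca
The strand of Mir103-1 and that of Mir103-2 are the same, and miR-107-3p differs from both by the single substitution G22C (miR-103-3p base first, counted from the 5′ end). The first 21 bases are thus shared by all 3 loci, and a read that ends there fits each of them.

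Mir193a and Mir193b share a seed as well, but their 3p strands differ by U9C, A20G and G21C (miR-193a-3p base first):
miR-193a-3p (Mir193a): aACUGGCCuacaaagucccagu
miR-193b-3p (Mir193b): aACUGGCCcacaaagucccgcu
Mir365-1 and Mir365-2 have a common 3p strand and are told apart by the 5p strands, which differ by U10C, G11A and A19C (miR-365-1-5p base first):
miR-365-3p (Mir365-1 and Mir365-2): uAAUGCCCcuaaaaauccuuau
miR-365-1-5p (Mir365-1): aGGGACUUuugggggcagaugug
miR-365-2-5p (Mir365-2): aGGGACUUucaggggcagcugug
The strands of Mir335 and Mir33 stand alone in seed:
miR-335-5p (Mir335): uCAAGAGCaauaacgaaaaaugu
miR-33-5p (Mir33): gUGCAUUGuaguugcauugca
Among 1738 mature sequences searched, no other locus held a seed of the 16 mature strands of these 9 loci.

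The loci fall into neighbourhoods (GRCm38). Mir193b, on chromosome 16 from 13449523 to 13449601 (+), lies 4238 bp before Mir365-1, from 13453840 to 13453926 (+), and both are within an intron of the opposite-strand gene Gm15738. Mir193a, on chromosome 11 from 79711969 to 79712034 (+), lies 14365 bp before Mir365-2, from 79726400 to 79726511 (+), with no other annotated gene over either. Mir103-1 is within an intron of Pank3 on chromosome 11 (35782396 to 35782481, +), Mir103-2 within Pank2 on chromosome 2 (131288052 to 131288137, +) and Mir107 within Pank1 on chromosome 19 (34820687 to 34820773, -). Mir335 is intronic in Mest on chromosome 6 (30741299 to 30741396, +) and Mir33 in Srebf2 on chromosome 15 (82198122 to 82198190, +), in each case on the host's strand.

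Across the 9 loci, the share of a library's counts was 0.154% ± 0.0179 (SD, n = 5) in primed EV, 0.176% ± 0.0142 (n = 5) in naive EV, 0.362% ± 0.0814 (n = 4) in primed ASC and 0.404% ± 0.0593 (n = 4) in naive ASC. Most of it fell at Mir103-1, with 30687 counts over the 18 libraries, and at Mir193b, with 5899. Mir365-2 had 1013 counts, Mir335 554, Mir107 235, Mir193a 193, Mir33 165, Mir365-1 54 and Mir103-2 31. Levels below are CPM, counts scaled to a common library total after adjustment by the trimmed mean of M-values (TMM), and refer to a hairpin locus, not to a strand. Fold changes and adjusted p-values come from the quasi-likelihood model of edgeR, with Benjamini-Hochberg adjustment over all 245 loci, and a locus passed at an adjusted p under 0.05. Fewer vesicles or cells of a kind and less of the RNA in each cannot be told apart in such pooled material.

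**Figure D1:**
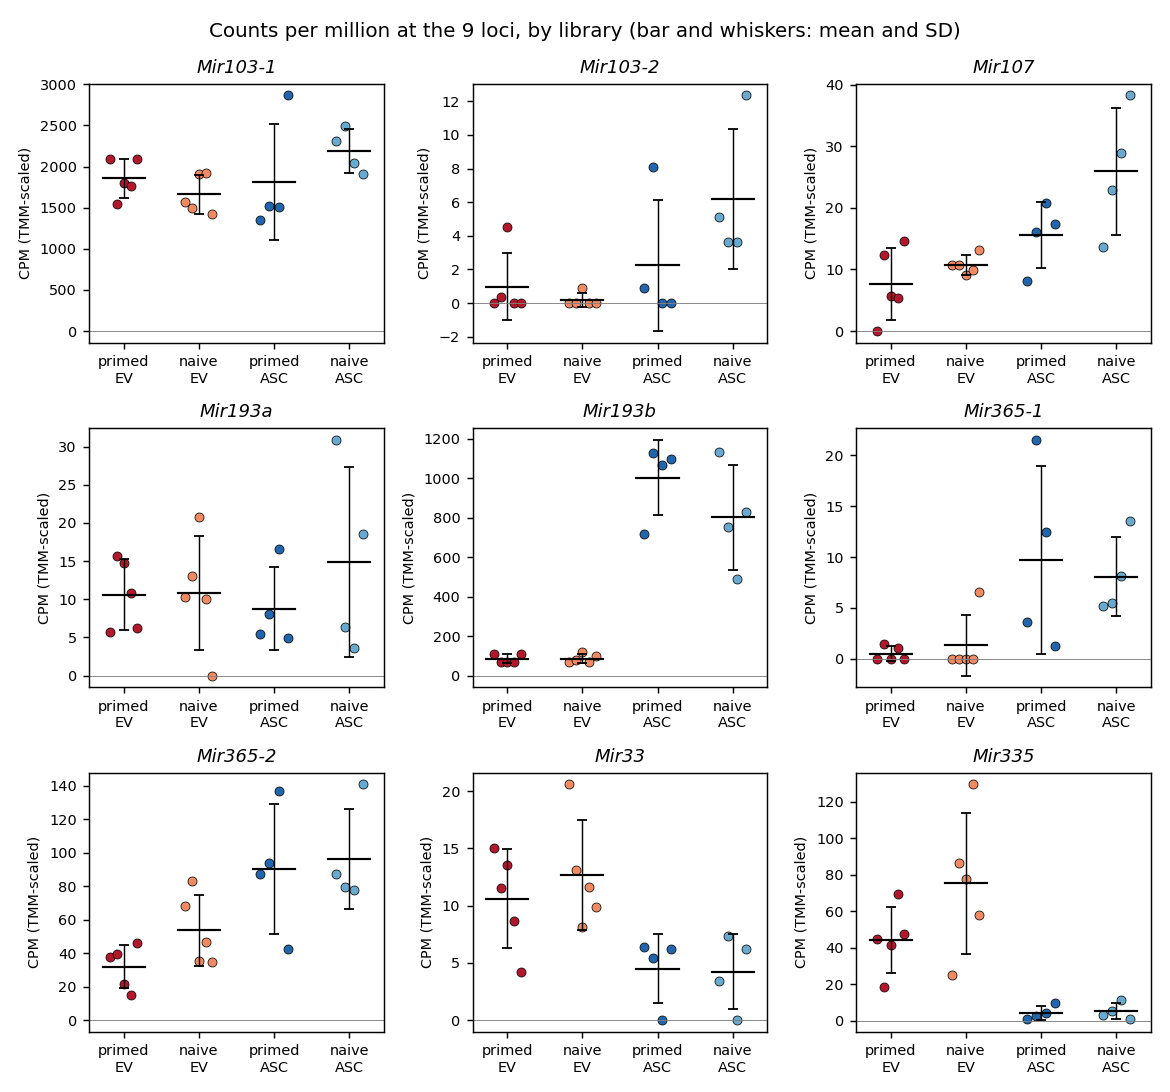
Each panel plots 1 locus, with 1 point per library, its level in CPM on the y axis and the 4 groups on the x axis; bars and whiskers are means and SD. Mir193b sits at 491 to 1132 CPM in all ASC libraries and at 66.8 to 120 CPM in all EV libraries, and Mir335 shows the opposite order.

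Mir193b was the most depleted of the 6 tested loci in EVs. Its level was 109, 67.9, 66.8, 70.4 and 108 CPM in primed EV 1 to 5 and 67.2, 76.04, 120, 68.1 and 99.2 CPM in naive EV 1 to 5, against 719, 1129, 1067 and 1097 CPM in primed ASC 2 to 5 and 1132, 754, 491 and 827 CPM in naive ASC 1, 3, 4 and 5. Every EV library lay below every ASC library, while primed and naive libraries overlapped within EVs and within cells. It was 11.99-fold lower in primed EV than in primed ASC (log2 difference -3.58, SE 0.27; edgeR, adjusted p = 1.06e-09). It was 9.29-fold lower in naive EV than in naive ASC (-3.22, SE 0.27, adjusted p = 3.72e-09 by the same test). Both calls held under all 8 alternatives and without any 1 of the 18 libraries. By group mean, primed ASC came first at 1003 ± 191 CPM, then naive ASC at 801 ± 264 (SD, n = 4 each), naive EV at 86.1 ± 22.9 and primed EV at 84.4 ± 22.1 (n = 5 each), and only the step between cells and EVs was free of overlap.

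Mir193a, with the same 3p seed, had no such step. It averaged 10.6 ± 4.64 CPM in primed EV and 10.8 ± 7.44 CPM in naive EV (SD, n = 5 each), against 8.77 ± 5.4 CPM in primed ASC and 14.9 ± 12.5 CPM in naive ASC (n = 4 each), and all groups overlapped. Its counts were 0 to 42 per library, so a difference well above 2-fold could be missed: the log2 fold changes were 0.54 (SE 0.74) in primed EV against primed ASC and -0.34 (SE 0.66) in naive EV against naive ASC, neither of which passed. The value of the primed comparison turned to -0.13 with library totals alone, and that of the naive comparison to 0.32 without naive ASC 1.

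Mir193b over Mir193a was therefore compared within libraries, a ratio that no library scaling can move and that was added after the values were seen. Summed over libraries, Mir193b held 85.4% of the counts of the 2 loci in primed EV (95% exact binomial interval 82.0 to 88.4) and 87.7% in naive EV (84.5 to 90.5), against 99.3% in primed ASC (98.8 to 99.6) and 98.4% in naive ASC (97.9 to 98.8). These intervals cover counting error only. The mean log2 ratio was 2.97 ± 0.952 in primed EV (SD, n = 5) and 6.82 ± 0.734 in primed ASC (n = 4), without overlap, a difference of -3.85. Its exact two-sided permutation p was 0.0159, the smallest that 5 against 4 libraries allow, and 0.106 adjusted over 20 ratio tests, which misses the threshold. In naive EV against naive ASC the difference was -2.62 (exact two-sided permutation p = 0.0794, adjusted p = 0.370), and naive EV 5, the one library with 0 counts of Mir193a, stood at 6.92 while the other naive EV libraries lay at 2.49 to 2.68. Without that library the difference was -3.49.

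**Figure D2:**
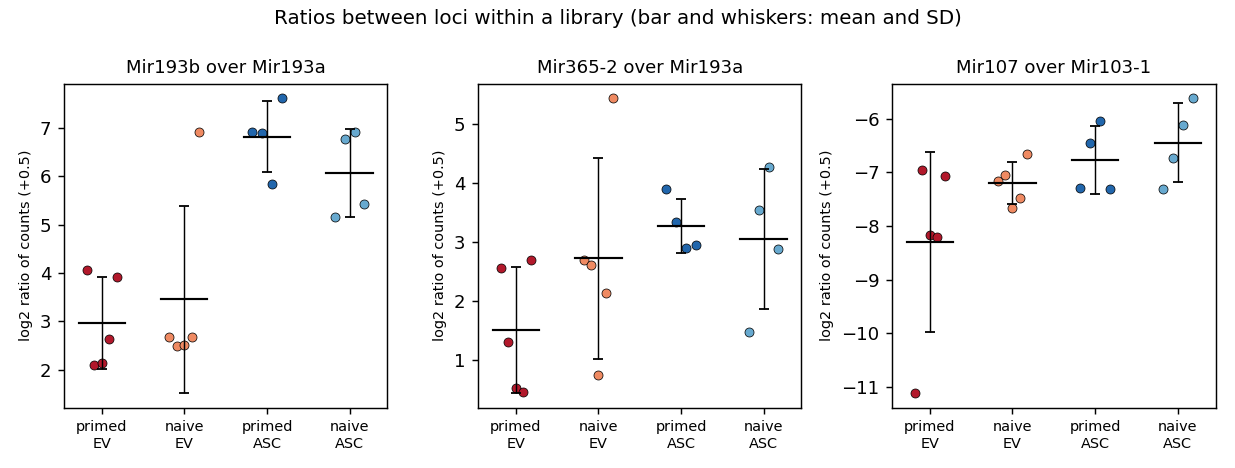
The panels plot log2 ratios of the counts of 2 loci (0.5 added to each) on the y axis, 1 point per library in the 4 groups, with means and SD. For Mir193b over Mir193a the 5 primed EV libraries lie below all 4 primed ASC libraries, and 1 naive EV library stands at 6.92.

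Mir365-2 was lower in primed EV than in primed ASC, while its value in naive material missed the threshold. Its level was 37.6, 39.2, 21.5, 15.2 and 45.7 CPM in primed EV 1 to 5 and 68.2, 83.2, 35.2, 46.5 and 34.7 CPM in naive EV 1 to 5, against 87.3, 94.1, 137 and 42.2 CPM in primed ASC 2 to 5 and 87.5, 79.6, 77.7 and 141 CPM in naive ASC 1, 3, 4 and 5. Primed ASC 5 fell among the primed EV libraries and naive EV 2 among the naive ASC libraries, so both pairs of groups overlapped. It fell 2.79-fold in primed EV against primed ASC (log2 fold change -1.48, SE 0.39; edgeR, adjusted p = 0.00244), a call kept under all 8 alternatives and without any 1 library. In naive EV against naive ASC its value was -0.84 (SE 0.37, adjusted p = 0.0543 by edgeR), just short of the threshold. That value passed in 5 of 8 alternatives, from -0.82 to -1.32, among them both fits with a replicate block (edgeR adjusted p = 0.0292 and 0.03), and without naive EV 2 (-1.04, adjusted p = 0.0336 by edgeR). Without naive ASC 5 it was -0.45.

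Mir365-1, the neighbour of Mir193b, was counted too rarely for the test. It had 0, 4, 0, 1 and 0 counts in primed EV 1 to 5 and 0, 0, 0, 0 and 4 in naive EV 1 to 5, against 4, 8, 3 and 1 in primed ASC 2 to 5 and 3, 6, 9 and 11 in naive ASC 1, 3, 4 and 5. Every ASC library thus held at least 1 count, while 3 primed and 4 naive EV libraries held 0. As a ratio of summed counts over summed totals, without TMM adjustment, primed EV stood at 0.0930 of primed ASC (95% exact interval 0.0266 to 0.266, counting error only) and naive EV at 0.0685 of naive ASC (0.0175 to 0.195). The EV counts rest on single libraries: without naive EV 5 the naive ratio was 0, and without primed EV 2 the primed ratio was 0.0330. The naive ratio was 0.113 without naive EV 1, the primed ratio 0.159 without primed ASC 3, and with TMM-scaled means the ratios were 0.0530 (primed) and 0.164 (naive). Within its cluster Mir365-1 was 1.19% of the counts of Mir193b and itself in primed EV (95% exact binomial interval 0.387 to 2.75), 0.911% in naive EV (0.249 to 2.32), 0.676% in primed ASC (0.387 to 1.10) and 1.06% in naive ASC (0.714 to 1.52). These intervals overlap, and the EV shares rest on the same few counts.

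The other cluster was compared in the same way. Mir365-2 held 71.7% of the counts of Mir365-2 and Mir193a in primed EV (95% exact binomial interval 65.7 to 77.2) and 83.0% in naive EV (78.7 to 86.7), against 92.1% in primed ASC (87.6 to 95.3) and 88.5% in naive ASC (84.9 to 91.5). The mean log2 ratio was 1.51 ± 1.07 in primed EV (n = 5) and 3.27 ± 0.463 in primed ASC (SD, n = 4), without overlap (difference -1.76, exact two-sided permutation p = 0.0159, adjusted over 16 ratio tests 0.127). In naive EV against naive ASC the difference was -0.32 (exact two-sided permutation p = 0.762), and the groups overlapped. Since miR-365-3p comes from both Mir365-1 and Mir365-2, the split of its reads between the clusters is not known, and 94.9% of the counts of the 2 loci were given to Mir365-2.

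Mir335 was higher in EVs. Its level was 45.1, 18.6, 41.9, 69.3 and 47.8 CPM in primed EV 1 to 5 and 25.0, 86.7, 77.6, 130 and 57.9 CPM in naive EV 1 to 5, against 0.909, 2.69, 4.15 and 9.94 CPM in primed ASC 2 to 5 and 3.43, 5.49, 11.7 and 1.24 CPM in naive ASC 1, 3, 4 and 5. All 10 EV libraries lay above all 8 ASC libraries, and no ASC library held more than 13 counts. It was 9.57-fold higher in primed EV than in primed ASC (log2 difference 3.26, SE 0.69; edgeR, adjusted p = 0.000337) and 12.7-fold higher in naive EV than in naive ASC (3.66, SE 0.63, adjusted p = 4.36e-05 by the same test). The size rests on few ASC counts: it was 4.36 without primed ASC 5 and 2.64 without primed ASC 2 in the primed comparison, and 4.36 without naive ASC 4 in the naive one. Both calls held in every such fit and under all 8 alternatives.

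Mir33 was too sparse for the test. It had 8, 31, 12, 8 and 2 counts in primed EV 1 to 5 and 42, 11, 9, 7 and 6 in naive EV 1 to 5, against 7, 2, 0 and 5 in primed ASC 2 to 5 and 2, 8, 0 and 5 in naive ASC 1, 3, 4 and 5. On the CPM scale the naive EV libraries (8.12 to 20.6) lay above the naive ASC libraries (0 to 7.32), while primed EV (4.16 to 15.0) and primed ASC (0 to 6.36) overlapped. The ratio of summed counts over summed totals, without TMM adjustment, was 1.30 in primed EV against primed ASC (95% exact interval 0.717 to 2.51). It was 2.48 in naive EV against naive ASC (1.42 to 4.66), and both intervals cover counting error only. The naive ratio was 1.80 without naive EV 1, and it ran from 1.69 without naive ASC 4 to 3.59 without naive ASC 3. The ratio of TMM-scaled means was 2.36 in the primed comparison (10.6 ± 4.32 CPM in primed EV, n = 5, and 4.49 ± 3.02 CPM in primed ASC, SD, n = 4) and 2.99 in the naive one (12.7 ± 4.8 CPM in naive EV, n = 5, and 4.23 ± 3.26 CPM in naive ASC, n = 4), so the primed value depends on the scaling.

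Mir103-1, the most counted of the 9 loci, passed in no comparison. Its level was 2091, 1541, 1798, 1766 and 2096 CPM in primed EV 1 to 5 and 1574, 1492, 1913, 1925 and 1425 CPM in naive EV 1 to 5, against 1355, 1522, 1507 and 2865 CPM in primed ASC 2 to 5 and 2316, 2493, 2040 and 1909 CPM in naive ASC 1, 3, 4 and 5. Primed ASC 5 was the highest of all 18 libraries and the other primed ASC libraries were among the lowest. The log2 fold change was 0.03 (SE 0.20) in primed EV against primed ASC and -0.39 (SE 0.20) in naive EV against naive ASC, and neither passed (edgeR, adjusted p = 0.889 and 0.0951). These values depend on the scaling: with library totals alone they were -0.66 and -0.87, and both passed (adjusted p = 0.00286 and 3e-04 by edgeR). Over all loci the median log2 fold change was -0.69 with library totals alone and 0.02 with TMM in the primed comparison, and -0.70 and -0.24 in the naive one, so Mir103-1 shifted with the other loci. The naive comparison also passed when only its own libraries were fitted (-0.38, adjusted p = 0.0499 by edgeR) and without primed ASC 5 (-0.32, adjusted p = 0.0342).

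Mir107 passed as lower in naive EV, a call that many settings did not keep. Its counts were 0, 33, 5, 5 and 7 in primed EV 1 to 5 and 22, 9, 10, 6 and 8 in naive EV 1 to 5, against 9, 6, 5 and 14 in primed ASC 2 to 5 and 8, 25, 32 and 31 in naive ASC 1, 3, 4 and 5. Scaled to CPM, the naive EV libraries (9.02 to 13.2) all lay below the naive ASC libraries (13.7 to 38.3), by a narrow gap. The log2 fold change was -0.92 (SE 0.55) in primed EV against primed ASC, which did not pass, and -1.28 (SE 0.50) in naive EV against naive ASC, which did (edgeR, adjusted p = 0.153 and 0.031). The naive call was lost with relative log expression (RLE) factors, without the low-count filter and by DESeq2 (adjusted p from 0.0563 to 0.109). It was also lost without naive EV 1, 2 or 3, primed ASC 2, 3, 4 or 5, or naive ASC 3, 4 or 5, with values from -0.91 to -1.31 and adjusted p from 0.0502 to 0.178.

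Mir107 over Mir103-1 within libraries gave no passing difference, with -1.53 in primed EV against primed ASC and -0.75 in naive EV against naive ASC (exact two-sided permutation p = 0.0952 and 0.111, both 0.444 after adjustment). Mir103-2, which yields the same 3p strand as Mir103-1, held 5 counts in primed EV and 1 in naive EV libraries, against 4 in primed ASC and 21 in naive ASC. Mir103-1 thus carried 99.9% of the counts of the 2 loci, and which of them the molecules came from is not known. Mir103-2 over Mir103-1 differed by -2.77 in naive EV against naive ASC (exact two-sided permutation p = 0.0159, adjusted p = 0.127), a value set largely by 0 counts in 4 of the 5 naive EV libraries.

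Over the 6 tested loci, 1 was higher, 2 were lower and 3 did not pass in primed EV against primed ASC, where 68.2% of the 245 loci passed (35.9% higher, 32.2% lower). The numbers were the same in naive EV against naive ASC, where 66.1% of all loci passed (33.5% higher, 32.7% lower), with Mir107 in the place of Mir365-2. The median log2 fold change of the 6 was -0.44 in the primed and -0.62 in the naive comparison, beside 0.02 and -0.24 over all loci. Groups were free of overlap at 2 of the 6 (Mir335 and Mir193b) in the primed comparison and at 3 (with Mir107) in the naive one, beside 53.5% and 58.4% of all loci. With library totals alone 5 of the 6 passed in each comparison, beside 176 (primed) and 181 (naive) of all 245 loci. With only the libraries of the comparison 5 of 6 passed in the naive one, beside 156 of the 229 loci tested there. The difference between both EV against ASC effects, tested as the interaction, passed at 0 of the 6 loci by edgeR, by DESeq2 and by limma-voom, and 0 had an unadjusted p under 0.05. Over all 245 loci 0 passed by edgeR and 3 by DESeq2, and 26 had an unadjusted p under 0.05, so the 0 of 6 is close to the background.

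**Figure D3:**
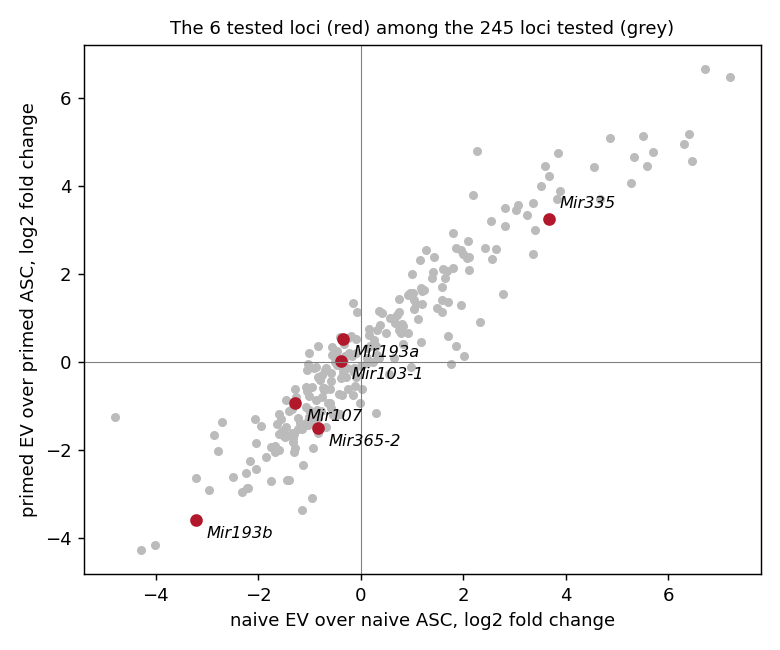
Each point is 1 of 245 tested loci, with its log2 fold change in naive EV over naive ASC on the x axis and in primed EV over primed ASC on the y axis; the 6 tested loci described here are red. Mir335 lies among the loci raised in EVs and Mir193b near the bottom of the lower left, at -3.22 and -3.58.

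Hairpin sequence composition moved with these differences over all loci. Of the tested loci 209 (85.3%) had a hairpin sequence, and the lowest of 3 equal classes by GC content (28.4% to 45.8%) had a median log2 fold change of 0.70 in primed EV against primed ASC and 0.33 in naive EV against naive ASC. The highest class (53.7% to 83.1%) had medians of -0.74 and -0.66. Mir335, at 42.9% GC in the hairpin and 30.4% in miR-335-5p, belonged to the lowest class, and Mir193b, at 53.2% and 59.1% in miR-193b-3p, stood at the upper edge of the middle class. Mir365-2, at 45.5% in the hairpin, 60.9% in miR-365-2-5p and 31.8% in miR-365-3p, stood at the upper edge of the lowest class. It was lower in primed EV than in primed ASC, against the median direction of that class, in which 49 of 70 loci were above 0. Mir193a, at 54.5% in the hairpin, was in the highest class and showed no passing difference, and the part of composition in any single value was not tested.

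None of the 6 tested loci passed between primed and naive material. In primed EV against naive EV 0 of the 6 passed by edgeR, by DESeq2 or by limma-voom, beside 0.816% of all loci, and groups overlapped at all 6, beside 2.45% of all loci free of overlap. Beside 25 of all 245 loci, 1 of the 6, Mir365-2, had an unadjusted p under 0.05. Its log2 fold change was -0.77 (SE 0.37; edgeR, adjusted p = 0.465), at 31.8 ± 12.9 CPM in primed EV and 53.5 ± 21.4 CPM in naive EV (SD, n = 5 each). Mir335 was at -0.76 (SE 0.49), with 44.55 ± 18.04 CPM in primed EV and 75.3 ± 38.5 CPM in naive EV. Mir107 was at -0.44 (SE 0.51), Mir103-1 at 0.16 (SE 0.19), Mir193b at -0.04 (SE 0.25) and Mir193a at 0.00 (SE 0.89). The sign of the last 3 depends on the setting: with library totals alone Mir103-1 was at -0.13 (median of all loci -0.25), without naive EV 3 Mir193b was at 0.15, and by limma-voom Mir193a was at 0.44.

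In primed ASC against naive ASC, again, 0 of the 6 passed by edgeR, by DESeq2 or by limma-voom. Of all loci 10.2% passed by edgeR (5.31% higher, 4.9% lower). An unadjusted p under 0.05 was found at 0 of the 6, beside 57 of all 245 loci. Groups overlapped at all 6, beside 11.4% of all loci free of overlap. The log2 fold changes were 0.32 (SE 0.26) for Mir193b, -0.12 (SE 0.40) for Mir365-2, -0.27 (SE 0.22) for Mir103-1, -0.35 (SE 0.76) for Mir335, -0.80 (SE 0.55) for Mir107 and -0.88 (SE 0.77) for Mir193a. Without primed ASC 5, the library with the most Mir103-1, that locus was at -0.59 and passed. RLE factors put Mir365-2 at 0.04, and without naive ASC 4 Mir335 was at 0.36.

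**Figure D4:**
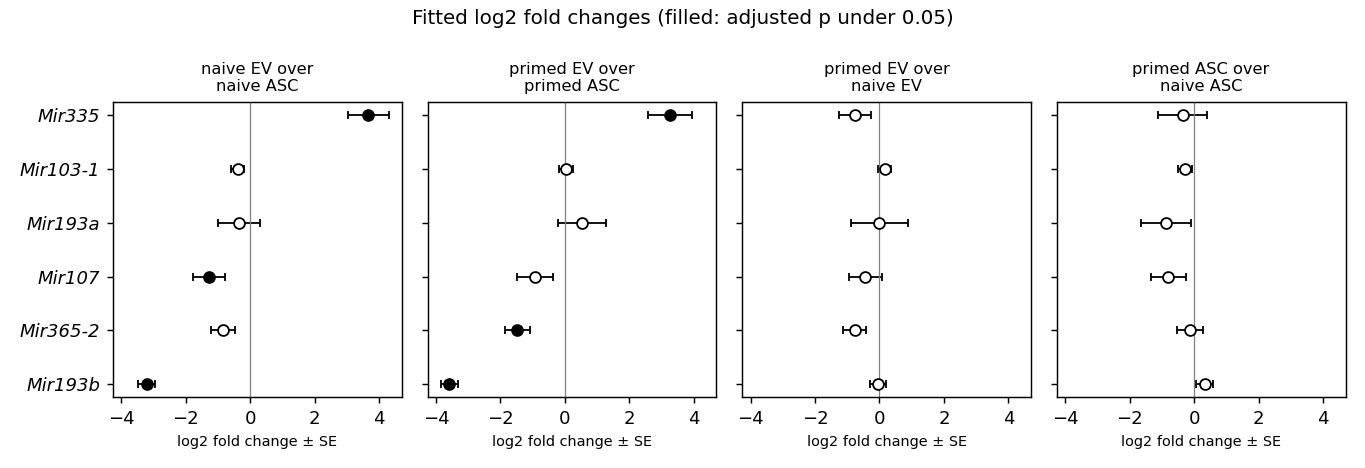
Each panel is 1 comparison, with log2 fold change and SE on the x axis and the 6 tested loci on the y axis; filled points passed at an adjusted p under 0.05. Filled points appear only in the panels of EV over ASC, at Mir335, Mir193b and Mir107 (naive) and at Mir335, Mir193b and Mir365-2 (primed).

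Mir378a, on chromosome 18 from 61397835 to 61397900 (-) in an intron of Ppargc1b, is spanned whole by Gm25301, an annotated miRNA locus from 61397813 to 61397925 on the other strand. Counting ignored strand, so reads of Mir378a could have been given to Gm25301, and which strand they came from is not known. Gm25301 stood at 164, 81.3, 157, 149 and 104 CPM in primed EV 1 to 5 and at 73.1, 41.6, 88.4, 164 and 77.7 CPM in naive EV 1 to 5, against 354, 530, 494 and 458 CPM in primed ASC 2 to 5 and 194, 202, 249 and 241 CPM in naive ASC 1, 3, 4 and 5. All primed ASC libraries lay above all naive ASC libraries, and all ASC libraries lay above all EV libraries of their own treatment. It was 3.50-fold lower in primed EV than in primed ASC (log2 difference -1.81, SE 0.30; edgeR, adjusted p = 2.54e-05) and 2.50-fold lower in naive EV than in naive ASC (-1.32, SE 0.30, adjusted p = 0.000732 by edgeR).

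Gm25301 also rose with priming in cells, by 1.05 on the log2 scale (SE 0.32; edgeR, adjusted p = 0.0379). That call was lost without the low-count filter (1.01, adjusted p = 0.0665) and without primed ASC 3 (1.01) or naive ASC 1 (1.02), 3 (1.05) or 4 (1.11), with adjusted p from 0.0543 to 0.0889. In primed EV against naive EV its value was 0.56 (SE 0.29, adjusted p = 0.471 by edgeR), and the interaction was -0.49 (SE 0.42, adjusted p = 0.638), so the priming effects in EVs and in cells were not shown to differ.

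**Figure D5:**
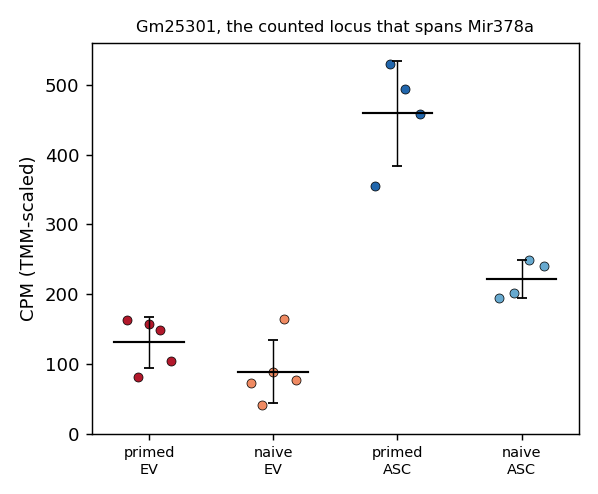
The y axis gives the level of Gm25301 in CPM for each library of the 4 groups, with means and SD. Primed ASC libraries lie at 354 to 530 CPM, above the naive ASC libraries at 194 to 249 CPM and all EV libraries.

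Levels of other loci were set beside each tested locus by the root mean square distance of log2 CPM over the 18 libraries, each locus centred on its own mean. Mir193b lay nearest to Mir3102 (0.56), Mir574 (0.56) and Mir125a (0.58), where the median distance to a tested locus was 1.79. Mir335 lay nearest to Mir98 (0.64), Mir192 (0.66) and Mir30e (0.68), beside a median of 1.84. Mir103-1 lay nearest to Mir152 (0.21), Mir181b-1 (0.27) and Mir148b (0.28), beside a median of 0.87. The distances to Mir181b-1 and Mir148b were close to the spread of Mir103-1 itself (0.29). Mir365-2 lay nearest to Mir615 (0.42), Mir877 (0.49) and Mir351 (0.51), and Mir107 to Mir3061 (0.56), Mir351 (0.63) and Mir323 (0.66). For Mir193a the nearest, Mir7068, Mir532 and Mir28a, lay at 0.83 to 0.84, close to the spread of Mir193a itself (0.88).

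A wider list held 40 other loci with roles in fat cell formation, brown fat or cholesterol handling. It was chosen with earlier results of these data known, so its counts are descriptive only, and 29 of its loci were tested. Of these 15 were higher and 4 lower in primed EV against primed ASC, where 35.9% of all loci were higher and 32.2% lower. In naive EV against naive ASC 13 were higher and 3 lower, where 33.5% of all loci were higher and 32.7% lower, with median log2 fold changes of 0.66 (primed) and 0.49 (naive) beside 0.02 and -0.24 over all loci. The smallest p-values in the naive comparison belonged to Mir30e at 3.24 (SE 0.23), Mir144 at 5.50 (SE 0.60), Mir26b at 2.08 (SE 0.23), Mir223 at 6.29 (SE 0.72), Mir30b at 1.58 (SE 0.25) and Mir196a-2 at 1.68 (SE 0.27). Mir30 and Mir26 family members promote fat cell formation in human cells, and Mir196a has a role in brown fat in mice. Not all listed members of these families were higher in the naive comparison. Mir30a (0.93) and Mir26a-1 (0.93) also passed as higher, but Mir30d (-0.85) and Mir30c-2 (-0.80) passed as lower. Mir30c-1 (-0.75), Mir26a-2 (-0.93) and Mir196a-1 (0.03) did not pass. Mir144 and Mir223 are also blood cell loci, counted among the 5 above. Mir30e averaged 7687 ± 1142 CPM in primed EV and 7133 ± 1458 CPM in naive EV (SD, n = 5 each), against 762 ± 175 CPM in primed ASC and 755 ± 184 CPM in naive ASC (n = 4 each). Mir223 was at 5.79 without naive EV 4, with its call kept.

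By part of the list, fat cell formation had 10 higher and 3 lower of 18 tested in the primed and 9 and 2 in the naive comparison. Brown fat had 2 and 1 of 6 in the primed and 1 and 1 in the naive comparison, and cholesterol handling had 3 and 0 of 5 in both, where 68.2% of all loci passed in the primed and 66.1% in the naive comparison; nothing particular to these parts is read from so few loci. In primed EV against naive EV 0 of the 29 passed by edgeR (3 had an unadjusted p under 0.05), beside 0.816% of all 245 loci (25 unadjusted). In primed ASC against naive ASC 2 passed (6 unadjusted), beside 10.2% of all loci (57 unadjusted). Both were lower: Mir143, a locus that promotes fat cell differentiation, at -0.89 (SE 0.23) and Mir758, which targets ABCA1, at -1.51 (SE 0.40). Mir143 lost its call without primed ASC 3 (-0.84) or 4 (-0.76) or naive ASC 3 (-0.70) or 4 (-0.75) and when only its own libraries were fitted (-0.78). Mir758 lost it without primed ASC 3, 4 or 5 or any 1 naive ASC library (-1.22 to -1.58), without the low-count filter (-1.53) and when only its own libraries were fitted (-1.35), and it was at -2.13 without primed ASC 2.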

How the data were processed

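Each of the 18 libraries has 1 deposited table of unnormalized read counts at annotated miRNA hairpins, made by the authors with featureCounts 1.5.3 on Ensembl release 76 miRNA genes, unstranded and with no option for reads that fit several places or loci, per the file headers. Tools listed in the submitters' processing notes are STAR 2.0.4, bcl2fastq, featureCounts 1.45 and Subread, on GRCm38; header and notes differ in the featureCounts version. How reads were trimmed and aligned is not given in the sources used here. Loci were named from GENCODE M21 by identifier (1894 of 2009; the others held 5 counts).

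Counts were tested with edgeR 4.0.16 in R 4.3.3: filterByExpr on the 4 groups (245 loci, 99.9573% of counts), TMM scaling, 1 mean per group, quasi-likelihood tests and Benjamini-Hochberg adjustment over all 245 loci, threshold 0.05. The approximate SE is the size of the log2 fold change divided by the root of its F statistic. CPM use TMM-scaled totals. Within-library log2 ratios (0.5 added) were compared by exact two-sided permutation tests (scipy 1.17.1), 16 planned and 20 in all. Alternatives were RLE factors, library totals, no filter, DESeq2 1.42.0, limma-voom (limma 3.58.1), fits of 2 groups, 2 replicate blocks and leaving out each library. The model was checked on simulated data. Ratios of summed counts of untested loci were also taken without each library and from TMM-scaled means, added after the values were seen. Counts carry no molecular identifiers, so intervals cover counting error only.

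Members and lists were chosen with earlier results of these data known. All 10 members are named; of the wider list, the 6 smallest p-values of the naive comparison and all loci passing in a priming comparison; by likeness, the nearest loci of members averaging at least 10 CPM.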

Additional observations from a re-analysis of the deposited data

Results flagged for a closer look

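A library was singled out where its gap to the nearest library of its group exceeded Dixon's 95% critical value relative to the group's range. Of 60 groups of values 10 had such a library, and chance flags about 1 in 20. Mir103-1 stood at 2865 CPM in primed ASC 5, beside 1355 to 1522 CPM in the other primed ASC libraries. Mir193b stood at 719 CPM in primed ASC 2, beside 1067 to 1129 CPM. Mir365-2 stood at 141 CPM in naive ASC 5, beside 77.7 to 87.5 CPM. Mir33 was at 0 CPM in primed ASC 4, the shallowest library, beside 5.38 to 6.36 CPM. The log2 ratio of Mir193b over Mir193a was 6.92 in naive EV 5, beside 2.49 to 2.68. The other flags rest on a few counts: Mir103-2 at 4.53 CPM in primed EV 3, 0.902 CPM in naive EV 3 and 8.07 CPM in primed ASC 3, Mir365-1 at 6.61 CPM in naive EV 5, and Mir103-2 over Mir103-1 at -8.46 in primed EV 3.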

How the results depend on the processing

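Of 1261 log2 fold changes refitted for named loci, 1179 kept direction and side of the threshold, 33 lost a call, 12 gained one and 38 changed sign, 1 of them also among the 12 (Mir103-1 in primed EV against primed ASC with library totals); none of the 38 had passed as reported. The count of passing loci in primed EV against naive EV, 2 in all, was 1 with library totals alone, 8 without the low-count filter (689 loci), 5 by DESeq2, 7 with a replicate block by title number and 1 to 8 without 1 library. In primed ASC against naive ASC the 25 were 15 with only those libraries (206 loci tested) and 6 to 33 without 1 library. The interaction had 0 by edgeR (26 at an unadjusted p under 0.05), 3 without the filter, 3 by DESeq2 and 0 to 1 without 1 library. The EV against ASC counts, 162 (naive) and 167 (primed), ran from 147 to 164 and from 154 to 168 without 1 library.

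Sign changes were as follows. In primed EV against primed ASC Mir103-1 was at -0.061 with RLE factors, -0.66 with library totals and -0.063 by DESeq2 (-0.16 to 0.33 without 1 library), and Mir193a at -0.13 with library totals. In primed EV against naive EV Mir103-1 was at -0.13 with library totals. There Mir193a was at 0.16 without the filter, 0.44 by limma-voom and 0.071 and 0.27 with a replicate block by source name or title number (-0.26 to 0.44 without 1 library), and Mir193b at -0.14 to 0.15 without 1 library. In primed ASC against naive ASC Mir365-2 was at 0.038 with RLE factors, 0.033 by DESeq2 and 0.0054 with only those libraries (-0.26 to 0.20 without 1 library), and Mir335 at -1.51 to 0.36. In naive EV against naive ASC Mir193a was at -0.70 to 0.32. In the interaction Mir107 was at -0.026 to 0.66 and Mir335 at -1.10 to 0.64.

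Ratios without 1 library, none passing, were -0.82 to 0.26 (naive EV against naive ASC) and -1.06 to 0.13 (primed against naive ASC) for Mir365-1 over Mir193b, and -0.99 to 0.18 and -0.30 to 0.63 for Mir365-2 over Mir193a. In primed against naive EV they were -0.031 to 0.77 for Mir103-2 over Mir103-1 and -0.76 to 0.38 for Mir193b over Mir193a. With a pseudocount of 1 Mir365-1 over Mir193b in naive EV against naive ASC was 0.62, in place of -0.10; ratios with Mir365-1 or Mir103-2 are set by the pseudocount where these loci are at 0. The cause of the other shifts was not tested. Same-numbered libraries correlated from -0.16 to 0.525 in their deviations from group means. Every value under 0.1 was of libraries that share the number 5. Unlike-numbered libraries were not compared, so whether the numbers mark pairs is not settled, and the main model has no replicate block. Among the 6 tested loci a replicate block changed no call other than that of Mir365-2 in naive EV against naive ASC (-0.97 by source name number). Low counts limit Mir103-2, Mir365-1 and Mir33 throughout. They also limit Mir107 (0 to 33 counts per library) and Mir193a (0 to 42), in EV as well as in ASC libraries.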

Other observations

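The uneven split between loci with the same mature strand also held at pairs other than Mir103-1 with Mir103-2 and Mir365-2 with Mir365-1. Among 14 pairs of loci that share a mature sequence and held at least 1000 counts together, the more counted locus took over 99% in 5 and under 90% in 6, with a median of 93.5%. Mir92-1 over Mir92-2 (99.9%) and Mir199a-2 over Mir199a-1 (99.7%) were as one-sided as Mir103-1 over Mir103-2, while Mir181a-1 held 59.0% beside Mir181a-2. The headers show no count option for reads that fit several places or loci. How the aligner placed such reads is not given, so whether the counts include them is not known. The reads themselves were not used here.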
